A study of Homo sapiens with 6 samples.

Results

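A set of 9 genes of the NOTCH pathway was compared in A549 cells, a human lung adenocarcinoma line, between a dormant and an activated group. They were taken by symbol from the 19470 genes of the count table, and 9 of 9 were found. They are the receptors NOTCH1, NOTCH2 and NOTCH3, the ligands JAG1 and JAG2, and the target genes HES1, HES4, HEY1 and NRARP. Total RNA of wild-type A549 cells had been sequenced in 3 dormant libraries, treated to induce dormancy, and 3 activated libraries, exposed to medium conditioned by osteoclasts, the cells that resorb bone. The comparison asked which transcripts differed between dormant and activated cells. The sources used here do not say how dormancy was induced or whether the groups shared a base medium, so a difference of medium and the activation cannot be told apart. Nothing in the labels ties the libraries to separate cultures. The p-values therefore measure the spread between these libraries only, which may be technical.

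NOTCH receptors are single-pass membrane proteins that are switched on by ligands on a neighbouring cell. Binding leads to cleavage by an ADAM protease and then by gamma-secretase, and the freed intracellular domain enters the nucleus, where it joins the DNA-binding protein RBPJ and a Mastermind coactivator. The best known direct targets are the HES and HEY genes, which encode transcriptional repressors of the basic helix-loop-helix class, and NRARP, an ankyrin-repeat protein that dampens the signal. In the lung the pathway is known for its part in choosing between secretory, ciliated and neuroendocrine fates.

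Total counts lay between 34128471 and 36667725 per library. The epithelial keratins KRT8 and KRT18 and the A549-rich enzymes ALDH1A1 and NQO1 were abundant, at 719 to 7700 CPM (counts scaled by library total and TMM factor) in the group means, while EPCAM was low at 1.28 and 0.611 CPM. The 9 epithelial and A549 markers summed to 6856 to 7055 CPM in dormant and 14893 to 16141 CPM in activated libraries, and 5 of them rose and 2 fell. Most of the higher sum was ALDH1A1, which went from 1570 to 7700 CPM in the group means, while NQO1 and EPCAM were the 2 that fell. CDKN2A, known to be deleted in this line, had 1 count in all 6 libraries. Of 12 osteoclast markers, 3 rose and 4 fell, their summed level was 126 to 129 CPM in dormant and 447 to 535 CPM in activated libraries, and DCSTAMP, OCSTAMP and CALCR had 0 counts throughout. Most of the activated sum was ITGB3 (265 ± 41.4 CPM) and TCIRG1 (197 ± 2.50 CPM), which rose with MMP9, while ATP6V0D2 went from 19.3 to 0.0707 CPM and ACP5, CTSK and NFATC1 also fell. Of 10 myeloid markers 4 rose, with sums of 133 to 144 and 160 to 169 CPM and with TYROBP, AIF1, C1QA, C1QB and C1QC at 0. Most of both sums was CD68 (135 and 152 CPM in the group means). CD14 went from 1.10 to 9.25 CPM and LAPTM5 from 0.224 to 2.10 CPM. In the osteoblast and stromal list, 3 of 8 markers rose and 1 fell, with sums of 18.5 to 23.3 and 17.5 to 18.2 CPM. The fall was that of RUNX2, from 15.4 to 8.75 CPM, while COL1A1 (5.09 to 7.75 CPM), DCN and PDGFRA rose. The 6 endothelial markers summed to 0.412 to 0.801 and 0.526 to 1.24 CPM, with CLDN5 at 0. MMP9, CSF1R, LAPTM5, DCN and PDGFRA passed the filter on low counts through the activated group only and could only be seen to rise, and ACP5 and ATP6V0D2 through the dormant group only, so they could only be seen to fall. The part of other cells' RNA in the results was not tested.

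Activated cells held more NOTCH3, JAG1 and HES1 transcript and less NOTCH2, HES4, HEY1 and NRARP than dormant cells, and NOTCH1 and JAG2 did not pass the test. NOTCH3 rose 5.69-fold and HEY1 fell 11.0-fold, the largest changes in each direction among the 9 genes. Of the 9, all of them tested, 3 rose and 4 fell by edgeR's quasi-likelihood test, at a threshold of 0.05 on the adjusted p. In the same test 73.7% of all 13336 tested genes passed, 36.5% higher and 37.2% lower, so the number of members called is close to the background. The groups did not overlap for 7 of 9 members, against 76.5% of tested genes. By the size of its change, HEY1, which passed the filter on low counts through the dormant group only, exceeded 98.3% of tested genes, NOTCH3 95.9% and HES4 90.8%, whereas NOTCH1 exceeded 8.70% and JAG2 3.18%. The median log2 fold change was 0.03 over the members and -0.02 over all tested genes. Scaling by total counts in place of TMM factors shifted that of all genes by -0.14 and gave 3941 higher and 5998 lower genes in place of 4868 and 4962.

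**Figure D1:**
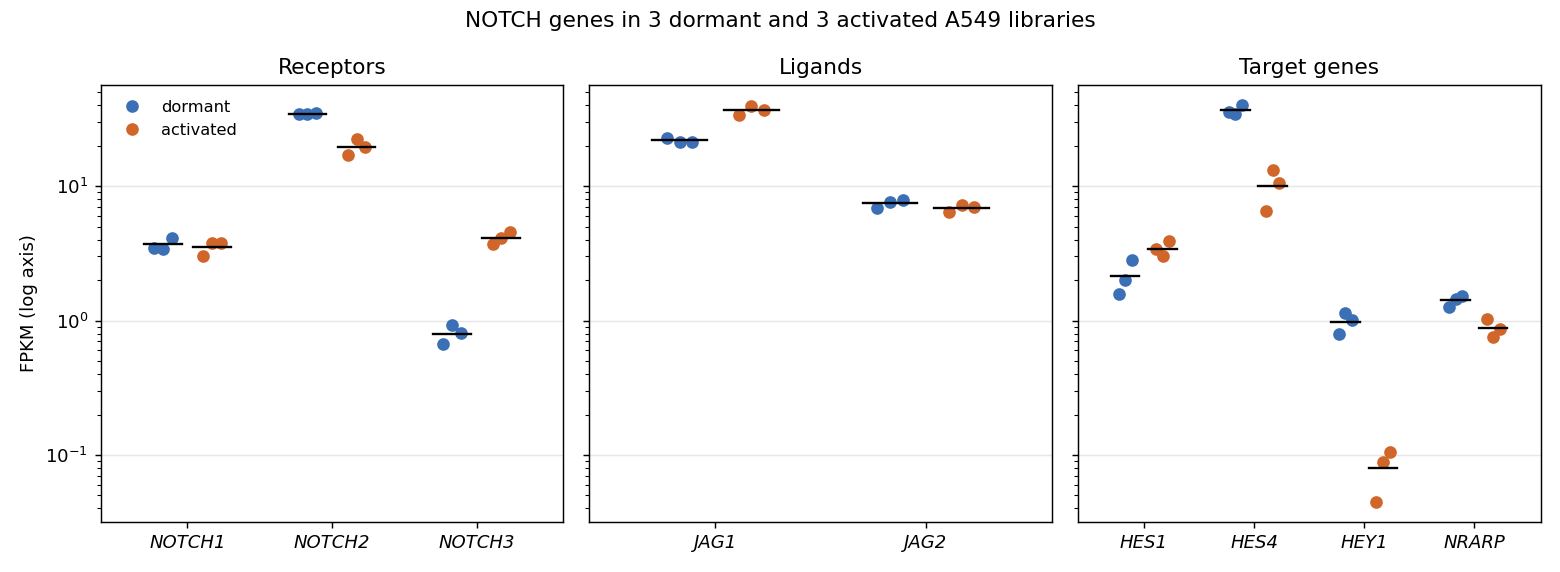
FPKM (fragments scaled by gene length and library total, log axis) of the 9 genes, with 1 point per library and a black line at the mean of 3 libraries. NOTCH3 moved from 0.801 to 4.14 FPKM and HEY1 from 0.981 to 0.0795 FPKM, while the points of NOTCH1 and of JAG2 overlap between the groups.

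NOTCH2 was the most abundant receptor transcript in both groups. The gene lies on chromosome 1 (119911553 to 120069662, minus strand, RefSeq GRCh38.p14). Its level was 389.6, 382 and 394 CPM in the dormant libraries and 212, 277 and 243 CPM in the activated ones. All activated libraries were below all dormant ones, and their spread was wider (388 ± 6.18 against 244 ± 32.6 CPM, SD, n = 3). This gave a log2 fold change of -0.67 ± 0.07 (SE, adjusted p = 1.07e-06), a 1.59-fold fall. The human genome also holds partial copies of NOTCH2 on the same chromosome, and reads that match both may be split or lost. Of these copies, listed here for their sequence and outside the naming rule, NOTCH2NLA had 5.71 and 6.35 CPM in the dormant and activated means, NOTCH2NLB 3.43 and 2.13 CPM, and NOTCH2NLC 4.73 and 1.72 CPM. By edgeR's test NOTCH2NLB fell 1.60-fold (adjusted p = 0.0166) and NOTCH2NLC 2.74-fold (adjusted p = 7.43e-05), while NOTCH2NLA did not pass (adjusted p = 0.412). Each was far below NOTCH2 itself, but a loss of shared reads would lower the counts of the copies too. The part of shared reads in these values was not tested.

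NOTCH3, on chromosome 19 (15159038 to 15200995, minus strand), encodes a receptor best known from vascular smooth muscle. It had 5.58, 7.49 and 6.63 CPM in dormant libraries and 33.4, 37.5 and 41.3 CPM in activated ones. The groups were far apart compared with the spread within each (6.57 ± 0.953 and 37.4 ± 3.95 CPM). The log2 fold change was 2.51 ± 0.11 (SE, adjusted p = 4.69e-11), and 1.51 on the log2(FPKM + 1) scale, which compresses low values.

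NOTCH1, on chromosome 9 (136494433 to 136546048, minus strand), is the receptor most often altered in T-cell leukaemia. Its level was 32.0, 30.7 and 37.6 CPM in dormant libraries and 30.2, 38.0 and 37.8 CPM in activated ones. The groups overlapped over most of their range. The log2 fold change was 0.08, with a 95% interval of -0.13 to 0.29 (adjusted p = 0.47), and after a correction for gene length it was 0.21 (adjusted p = 0.0326), which passed. Scaled by total counts instead, the value was -0.06. NOTCH4, the fourth receptor, known from endothelium, had 13 to 20 counts per library and a log2 fold change of 0.17 ± 0.45 (SE, adjusted p = 0.745).

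NOTCH3 thus took a larger and NOTCH2 a smaller part of the receptor transcripts in activated cells. NOTCH2 made up 89.2%, 88.8% and 87.6% of the summed NOTCH1, NOTCH2 and NOTCH3 FPKM in dormant libraries and 71.8%, 73.8% and 70.2% in activated ones. The share of NOTCH3 was 1.75%, 2.38% and 2.02% in dormant libraries and 15.5%, 13.7% and 16.3% in activated ones. NOTCH1 went from 9.42% ± 0.81 to 12.9% ± 0.527 (SD, n = 3), although its own level did not pass the test. The sum of the 3 receptors was 39.1 ± 0.772 FPKM in dormant and 27.4 ± 3.31 FPKM in activated libraries. FPKM leave out the TMM factors, which were 1.04 to 1.06 in dormant and 0.952 to 0.954 in activated libraries. The FPKM sum therefore sets the activated group lower than CPM would, which the shares do not. Each share separated the groups fully, which gives p = 0.1 in a two-sided exact permutation test and also after adjustment over 3 receptors, the smallest p that 3 against 3 libraries allow.

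**Figure D2:**
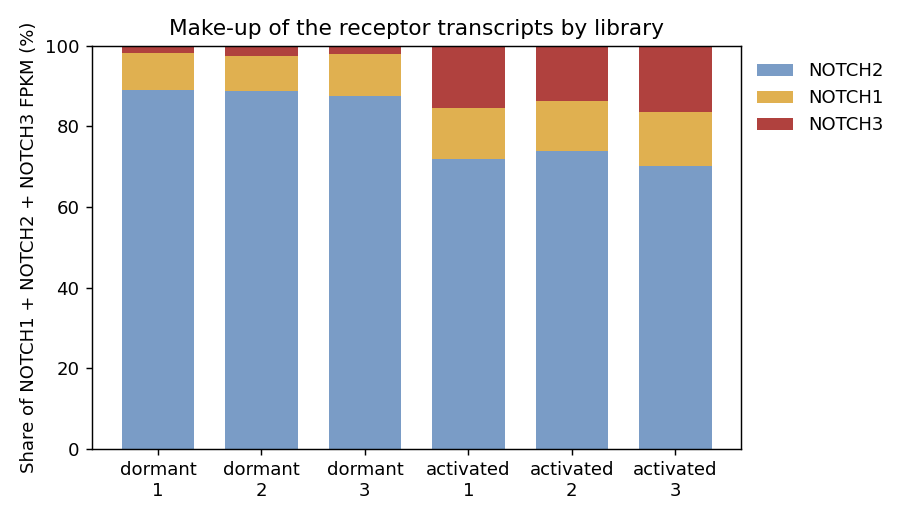
Share of each receptor in the summed FPKM of NOTCH1, NOTCH2 and NOTCH3 (percent, vertical axis), with 1 bar per library. The NOTCH3 share lies between 1.75% and 2.38% in the dormant libraries and between 13.7% and 16.3% in the activated ones, and NOTCH2 remains the largest in all 6.

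A ratio of 2 genes within a library does not depend on the scaling between libraries, so 7 pairs were compared in this way. The FPKM ratio of NOTCH2 to NOTCH3 was 51.0, 37.2 and 43.4 in dormant libraries and 4.63, 5.40 and 4.30 in activated ones, a 9.14-fold shift. That of NOTCH1 to NOTCH3 was 5.18, 3.71 and 5.12 in dormant libraries and 0.816, 0.917 and 0.827 in activated ones. Per length, NOTCH3 was thus the lower of that pair in all dormant and the higher in all activated libraries. In counts, activated replicate 2 had 1319 for NOTCH1 and 1300 for NOTCH3. The ratio of NOTCH1 to NOTCH2 shifted by 1.69-fold towards NOTCH1. All 7 pairs separated the groups fully, with p = 0.1 in the exact permutation test, also after adjustment over the 7 pairs, and no smaller p was possible.

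Of the ligands, JAG1 rose and JAG2 did not pass. JAG1, on chromosome 20 (10637684 to 10673999, minus strand), encodes the Jagged ligand that is mutated in Alagille syndrome. It had 131, 119 and 122 CPM in dormant libraries and 209.6, 248 and 229.5 CPM in activated ones. Every activated library was above every dormant one. JAG1 had a log2 fold change of 0.89 ± 0.06 (SE, adjusted p = 7.94e-09), a 1.85-fold rise. A GENCODE antisense gene shares exonic sequence with JAG1 on the other strand. The sources used here do not say whether counting used strand, so reads of the 2 genes cannot be told apart.

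JAG2, on chromosome 14 (105140995 to 105168776, minus strand), encodes the second Jagged ligand. It had 38.2, 41.5 and 43.2 CPM in dormant libraries and 39.2, 43.7 and 42.7 CPM in activated ones. These values overlapped almost fully. The log2 fold change was 0.03, with a 95% interval of -0.12 to 0.18 (adjusted p = 0.695), and with total counts it was -0.11. A GENCODE transcript on the same strand shares exonic sequence with JAG2, so part of its reads may belong to it. The FPKM ratio of JAG1 to JAG2 was 3.33, 2.79 and 2.74 in dormant libraries and 5.20, 5.53 and 5.23 in activated ones, a 1.81-fold shift (exact permutation p = 0.1).

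Among 8 other ligands and proteins described as binding NOTCH, 6 were tested, 3 rose and 3 did not pass, with a median log2 fold change of 0.64. Over all tested genes 73.7% passed and 36.5% rose, with a median of -0.02, and the list was not tested against this background. EGFL7, a secreted protein, had 27.1, 24.9 and 26.6 CPM in dormant libraries and 48.6, 56.6 and 50.5 CPM in activated ones (log2 fold change 0.99, adjusted p = 1.07e-08). CNTN1, an adhesion molecule of neurons, went from 161 ± 5.18 to 310.3 ± 24.3 CPM (adjusted p = 1.73e-09). The groups of both genes lay apart. DNER, an EGF-repeat protein of neurons, rose 1.17-fold (adjusted p = 0.015), a call that ended with total counts (adjusted p = 0.325) and without dormant replicate 3 (0.0594). DLL3, an inhibitory Delta-like ligand linked to neuroendocrine tumours, had 7.80 ± 0.599 and 7.46 ± 0.746 CPM (adjusted p = 0.687). DLL4 had 14 to 23 counts per dormant and 20 to 42 per activated library (log2 fold change 0.73 ± 0.43 SE, adjusted p = 0.141). DLK2, which overlaps ABCC10, had a log2 fold change of 0.55 ± 0.35 (SE, adjusted p = 0.167). DLL1, with 4 to 18 dormant and 0 to 6 activated counts per library, and DLK1, with 0 to 2, were too low to be tested.

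The 4 target genes did not move together. HES1 and HES4 encode closely related repressors, and their start regions are shown because both hold the core of the RBPJ site while their transcripts moved in opposite directions. The windows are the 250 bases before the RefSeq start, read on the gene's strand, at chr3:194135898-194136147 (plus strand) for HES1 and chr1:1000098-1000347 (minus strand) for HES4, build GRCh38.p14, from RefSeq. Capitals mark the core GTGGGAA.
HES1: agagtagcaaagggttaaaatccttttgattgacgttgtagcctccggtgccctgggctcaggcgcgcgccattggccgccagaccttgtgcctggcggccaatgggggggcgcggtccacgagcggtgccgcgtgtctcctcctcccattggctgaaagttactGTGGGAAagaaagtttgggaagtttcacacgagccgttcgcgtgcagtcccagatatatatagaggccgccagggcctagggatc
HES4: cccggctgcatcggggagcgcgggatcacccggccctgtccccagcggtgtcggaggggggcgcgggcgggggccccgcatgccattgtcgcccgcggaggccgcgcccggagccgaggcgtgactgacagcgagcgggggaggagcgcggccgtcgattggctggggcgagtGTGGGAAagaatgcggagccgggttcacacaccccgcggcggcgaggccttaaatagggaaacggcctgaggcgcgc

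The core begins 85 bases before the start of HES1 and 77 bases before that of HES4, in the same orientation. The longest run of letters that the 2 windows share is TGTGGGAAAGAA, which includes the core. GTGGGAA was searched on both strands (TTCCCAC on the other), and it was present in 5.46% of 27305 RefSeq windows of this length. Other forms of the RBPJ site were not searched, so further sites in the 2 windows are not marked. The 12-letter run was present in 6 of them, HES1 and HES4 included. No match was found in the windows of NOTCH1, NOTCH2, NOTCH3, JAG1, JAG2 or NRARP, which says only that these letters are not in these windows. HEY1 had no entry in the table. A match is a description of sequence, and binding was not measured.

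HES1, on chromosome 3 (194136148 to 194138732, plus strand), encodes the repressor that is the most general readout of NOTCH. It had 2.40, 2.98 and 4.25 CPM in dormant libraries and 5.61, 4.96 and 6.49 CPM in activated ones. The highest dormant library, replicate 3, came close to the lowest activated one, but the groups did not overlap. The log2 fold change was 0.82 ± 0.22 (SE, adjusted p = 0.00316), a 1.77-fold rise from 358 to 577 counts in all. HES4, on chromosome 1 (998964 to 1000097, minus strand), fell in contrast. It had 33.0, 31.4 and 37.2 CPM in dormant libraries and 6.58, 13.5 and 10.6 CPM in activated ones. The activated libraries differed widely among themselves, but all lay below the dormant ones. HES4 thus had a log2 fold change of -1.73 ± 0.17 (SE, adjusted p = 3.06e-07), a 3.31-fold fall. The FPKM ratio of HES1 to HES4 went from 0.0447, 0.0582 and 0.0701 to 0.523, 0.226 and 0.374, so HES4 stayed the higher of the pair per length in every library.

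HEY1, on chromosome 8 (79764010 to 79767767, minus strand), encodes a repressor with a part in vessel and heart development. It had 71, 103 and 86 counts in dormant libraries and 4, 8 and 9 in activated ones. These are 2.32 ± 0.384 and 0.207 ± 0.0812 CPM (SD, n = 3). On the log2 scale the fold change was -3.47 ± 0.40 (SE, adjusted p = 1.77e-06). Because of the filter, HEY1 could only be seen to fall. Its change was -0.87 on the log2(FPKM + 1) scale. The FPKM ratio of HES1 to HEY1 moved from 1.998, 1.77 and 2.79 to 75.6, 33.9 and 37.3.

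NRARP, on chromosome 9 (137299631 to 137302271, minus strand), had 3.23, 3.60 and 3.83 CPM in dormant libraries and 2.86, 2.10 and 2.41 CPM in activated ones. The groups did not overlap but lay close, since activated replicate 1 approached dormant replicate 1. The log2 fold change was -0.53 ± 0.22 (SE, adjusted p = 0.0375), a 1.45-fold fall. The call was lost without dormant replicate 2 (adjusted p = 0.0795), dormant replicate 3 (0.115), activated replicate 2 (0.122) or activated replicate 3 (0.0779). The ratio of HES1 to NRARP rose in FPKM from 1.25, 1.39 and 1.86 to 3.29, 3.95 and 4.52.

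Of 10 other HES/HEY relatives, 6 were tested, 3 fell and 3 did not pass. In the same test 73.7% of all tested genes passed and 37.2% fell, and the list was not tested against this background. HEYL, a close relative of HEY1, had 27.2, 30.1 and 28.5 CPM in dormant libraries and 5.06, 4.15 and 5.45 CPM in activated ones. The groups lay far apart, and the log2 fold change was -2.55 ± 0.11 (SE, adjusted p = 3.18e-11), a 5.86-fold fall. The RefSeq window of HEYL holds the RBPJ core on the opposite strand. BHLHE41 fell 9.37-fold and BHLHE40 1.19-fold. Both encode repressors known from the circadian clock rather than mainly as NOTCH targets, and exons of BHLHE41 overlap those of SSPN, so its value is uncertain. HES6 had 5.36 ± 1.08 and 4.78 ± 0.171 CPM (adjusted p = 0.429), and HES7 had 3.12 ± 0.0174 and 2.81 ± 0.82 CPM (adjusted p = 0.582). HES2 had a log2 fold change of -0.74 ± 0.46 (SE, adjusted p = 0.163) and also passed the filter through the dormant group only. With unfiltered log2(FPKM + 1) its change of -0.080 was called (adjusted p = 0.0219). HEY2 had 0 to 2 counts per library and HES5 had 1 count in all, while HES3 and HELT had 0.

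**Figure D3:**
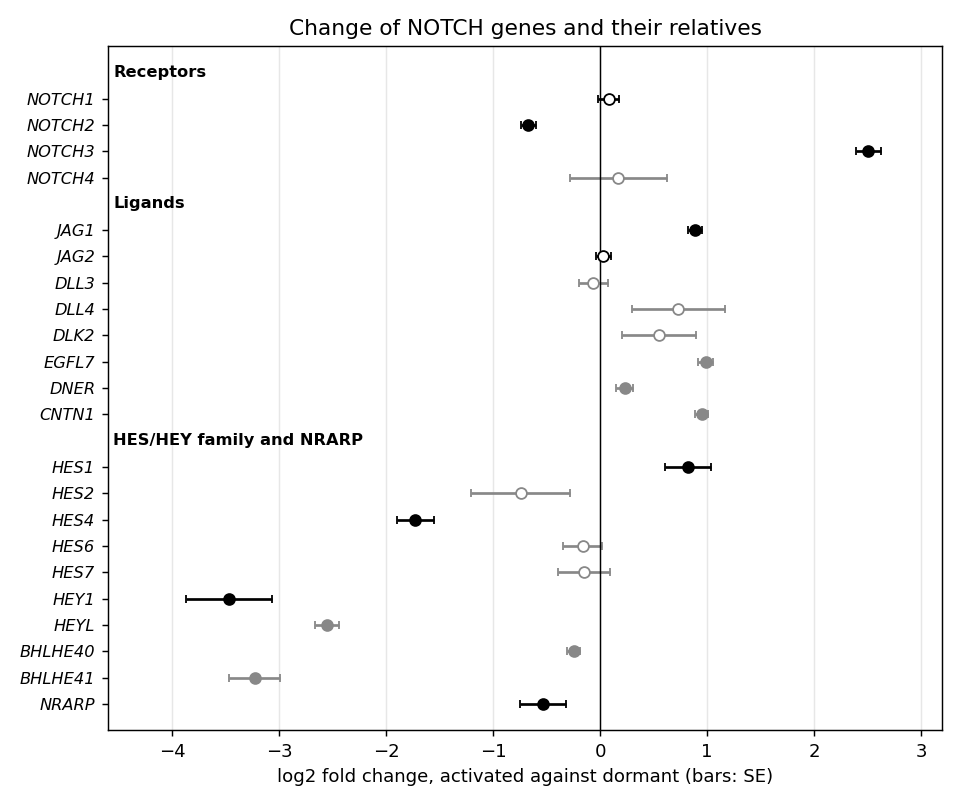
Log2 fold change of activated against dormant libraries (horizontal axis, bars are SE) for receptors, ligands and HES/HEY genes. Black points are the 9 genes described here and grey points their relatives, filled where the adjusted p was under 0.05. HEY1, BHLHE41, HEYL and HES4 lie on the lower side at -3.47, -3.23, -2.55 and -1.73, and NOTCH3 at 2.51 on the higher.

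The order of the 9 levels, compared per length as FPKM, differed between the groups. In dormant libraries it was HES4 (36.8 FPKM), NOTCH2 (34.6), JAG1 (21.9), JAG2 (7.45), NOTCH1 (3.69), HES1 (2.14), NRARP (1.41), HEY1 (0.981) and NOTCH3 (0.801). HES4 and NOTCH2, and HEY1 and NOTCH3, were neighbours whose libraries overlapped. In activated libraries it was JAG1 (36.8 FPKM), NOTCH2 (19.7), HES4 (10.1), JAG2 (6.90), NOTCH3 (4.14), NOTCH1 (3.53), HES1 (3.44), NRARP (0.887) and HEY1 (0.0795). There HES4 overlapped JAG2, NOTCH3 overlapped NOTCH1 and NOTCH1 overlapped HES1. NOTCH3 thus moved from the lowest place to the fifth and HEY1 to the lowest.

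Libraries of a group were not alike for these genes. In the activated group replicate 1 was the lowest for 7 of 9 members, all except HES1 and NRARP, where 37.2% of tested genes were lowest in that library. Dormant replicate 3 was the highest dormant library for 6 of 9, against 30.7% of tested genes. Without activated replicate 1 the log2 fold change was -0.57 for NOTCH2 and -1.48 for HES4.

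Genes upstream and downstream of the receptors came from lists grouped by role, with 96 genes in all, of which 83 were tested. Of these 24 rose, 35 fell and 24 did not pass, with a median log2 fold change of -0.15. With limma on unfiltered log2(FPKM + 1) the split was 17 and 41. Over all genes that setting gave 3904 higher and 5998 lower. In the edgeR test 73.7% of all 13336 tested genes passed, 36.5% higher and 37.2% lower. The share of listed genes called there is thus close to the background, and no list was tested against it. In the enzymes that modify the receptor, 3 of 5 rose and 2 did not pass, while with total counts 2 rose and 1 fell. LFNG, the Fringe glycosyltransferase that biases receptors towards Delta-like ligands, had 2.62, 2.88 and 2.63 CPM in dormant libraries and 7.77, 6.43 and 6.70 CPM in activated ones, a 2.57-fold rise (adjusted p = 3.91e-06). POFUT1, which adds O-fucose to the receptor's EGF repeats, rose 1.54-fold (adjusted p = 1.31e-07). The groups did not overlap for either gene.

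Of 3 proteases listed for receptor cleavage, 2 rose and 1 fell. ADAM10, the main ligand-dependent protease, went from 179.8 ± 3.18 to 317 ± 16.1 CPM and FURIN, which cuts the receptor on its way to the surface, from 139.6 ± 3.09 to 233 ± 7.37 CPM. ADAM17 fell 1.15-fold, a call that ended after the gene length correction (adjusted p = 0.136), and its exons overlap those of IAH1. Of the 6 gamma-secretase subunits, 2 rose and 3 fell. The fall of APH1B was the largest at 1.84-fold (adjusted p = 1.29e-07), followed by that of the catalytic subunit PSEN2 at 1.33-fold, and nicastrin (NCSTN), whose exons overlap those of COPA, rose 1.27-fold (adjusted p = 1.44e-05). Of 6 genes for endocytosis of the ligand, which is needed for it to pull on the receptor, 3 fell and 1 rose. The ubiquitin ligase NEURL1 went from 171, 129 and 105 to 16, 2 and 9 counts, passed the filter through the dormant group only and had a log2 fold change of -3.75 ± 0.44 (SE, adjusted p = 2.01e-06). Without activated replicate 1 this was -4.43. MIB1, the ligase used most by Jagged and Delta ligands, fell 1.51-fold (adjusted p = 0.000155). EPN1, an endocytic adaptor, rose 1.14-fold, a call that ended with total counts (adjusted p = 0.378), and its exons overlap those of NLRP9.

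In the nuclear complex 5 of 9 genes fell and 2 rose, where 37.2% of all tested genes fell and 36.5% rose. The acetyltransferase CREBBP fell by 0.997 on the log2 scale, from 198 ± 4.20 to 99.0 ± 9.81 CPM and SNW1, a coregulator and splicing factor, fell 1.84-fold, while the coactivator MAML3 rose 1.49-fold (adjusted p = 3.51e-06). Exons of SNW1 overlap those of SLIRP and exons of MAML3 those of MGST2. RBPJ itself, named after its values were seen, went from 44.2 ± 1.19 to 38.6 ± 1.88 CPM, a 1.14-fold fall (adjusted p = 0.0111). Of 16 corepressors 7 rose and 6 fell, and with total counts 6 rose and 7 fell. TLE2, a corepressor of the Groucho family, rose 2.39-fold, and CIR1, a corepressor that binds RBPJ, fell 2.31-fold. Of 13 genes for receptor trafficking and turnover 8 fell and 3 rose. DTX3, of the Deltex ubiquitin ligase family, fell 2.47-fold and the endocytic kinase AAK1 1.97-fold, whereas NUMBL, a relative of the NOTCH inhibitor NUMB, rose 1.80-fold (adjusted p = 6.33e-09).

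Of 16 other genes often named as NOTCH targets, 13 were tested, 5 fell and 1 rose, where 37.2% of all tested genes fell and 36.5% rose. BCL2, which blocks apoptosis, fell 3.52-fold from 3.66 ± 0.741 to 1.03 ± 0.423 CPM (adjusted p = 0.000107), and CDKN1A, which encodes the cell cycle inhibitor p21, fell 2.21-fold. ERBB2, a receptor tyrosine kinase whose exons overlap those of MIEN1 and PGAP3, rose 1.55-fold (adjusted p = 3.04e-07). CDKN1B, another cell cycle inhibitor and a gene known to be repressed by HES1, fell 1.56-fold. In these bulk libraries, fewer cells with a transcript and less of it per cell cannot be told apart.

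**Figure D4:**
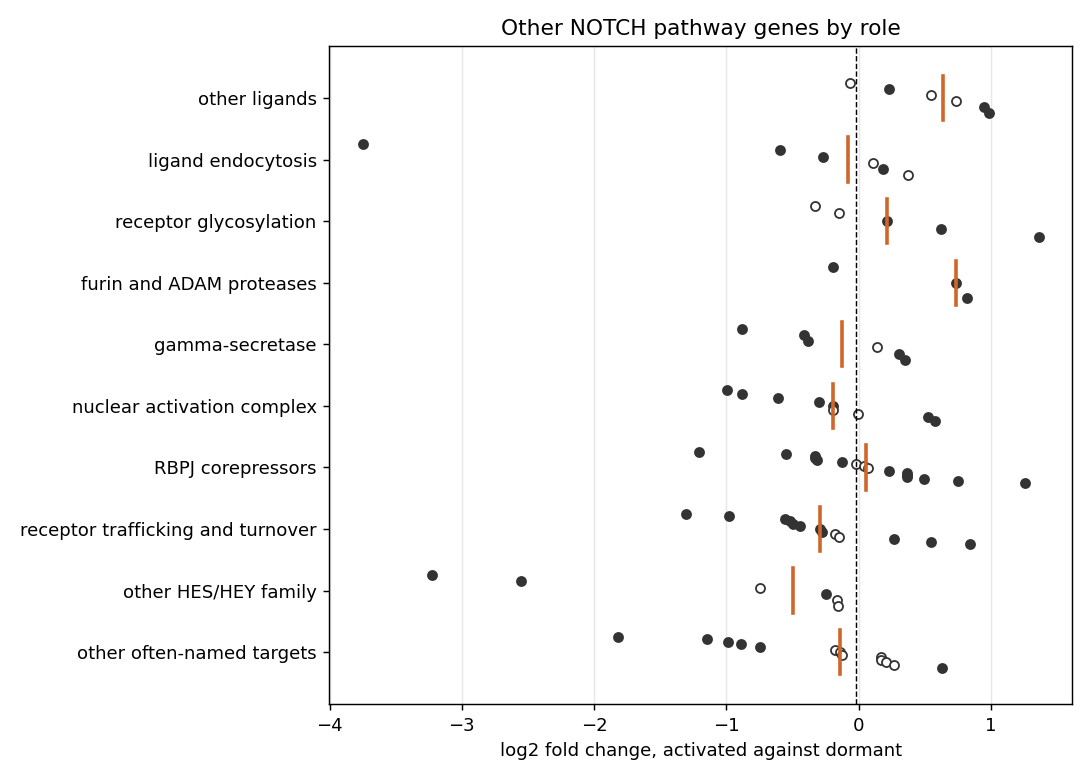
Log2 fold change of activated against dormant libraries (horizontal axis) for the tested genes of 10 role lists, filled where the adjusted p was under 0.05, with the list median as an orange bar and the median of all tested genes as a dashed line. Points lie on both sides of the line in every list except the HES/HEY relatives, all of which lie below it. Of these relatives, HES2, HES6 and HES7 did not pass. HES2 passed the filter through the dormant group only and could only be seen to fall. HES7 was at 0.0737 without activated replicate 2. HES1, which rose, and HES4 and HEY1, which fell, are not in that list. The points farthest from the line are NEURL1 at -3.75 and BHLHE41 at -3.23.

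For each of the 9 genes the tested genes with the most similar pattern were sought, by the root-mean-square difference of mean-centred log2 CPM over the 6 libraries, among 10966 genes whose mean log2 CPM was 2 or more. The closest to JAG1 were MCM2 (0.0169), ACTN1 (0.0371) and POLR1G (0.0385). POLA2 (0.088), MRC2 (0.0951) and PKMYT1 (0.1) were the closest to NOTCH3, and MED13 (0.0287), APBB2 (0.0291) and TCF12 (0.0385) to NOTCH2. For HES4 the nearest was MAP1A (0.0993), for HES1 THOC3 (0.154) and for HEY1 VGF (0.177). NT5M (0.0483) was nearest to NOTCH1, L1CAM (0.022) to JAG2 and PIGV (0.0513) to NRARP. The measure selects genes of a similar change between the groups.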

How the data were processed

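The authors deposited whole-number counts per gene symbol and, in a separate table, FPKM, with 1 column per library. The submitters' processing notes name GRCh38 as the build and fastp, HISAT2 and HTSeq as tools. For versions, annotation and strand setting the sources used here give nothing. The deposited FPKM equal count over length over library total, to within 1.02e-09 between a pair of libraries for 10933 genes.

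Counts were tested with edgeR 4.0.16 (R 4.3.3), quasi-likelihood, TMM factors, the default low-count filter (minimum count 10) and Benjamini-Hochberg adjustment over all tested genes, threshold 0.05. An SE is the log2 fold change over the square root of F. The procedure was tested on simulated counts, and the outcome of that test is not reported here. Libraries of a group differed by more than sampling noise (chi-square per degree of freedom 4.87 to 22.5), so each was counted once. Within-library ratios and shares used a two-sided exact permutation test over libraries.

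Alternatives were other scalings (DESeq2 size factors, total counts, upper quartile), DESeq2 1.42.0, limma voom (limma 3.58.1), other filters, the replicate number as a block, a length correction (loess, span 0.3), limma on log2(FPKM + 1) or log2(FPKM + 0.1), and leaving out each library. The members and lists were chosen with earlier results of these data known. The naming rule took all members, other receptors, other ligands and HES/HEY genes, and of every other list the 2 called genes with the largest change in the commoner direction and the 1 with the largest in the other. It also took the 3 genes nearest in pattern to each member. Some genes that the rule or the lists hold are not reported here. Coordinates are 1-based, from RefSeq GRCh38.p14. Exon overlaps were read from GENCODE 29.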

Additional observations from a re-analysis of the deposited data

How the results depend on the processing

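The directions and calls of NOTCH2, NOTCH3, JAG1, HES1, HES4 and HEY1 were the same under every alternative run. NOTCH1 and JAG2, which did not pass, changed sign with total counts (log2 fold change -0.0603 and -0.109), with filtered or unfiltered log2(FPKM + 1) (-0.0492 and -0.0955) and with log2(FPKM + 0.1) (-0.0618 and -0.107), all scaled by the same totals. JAG2 lay between -0.0115 and 0.0793 when 1 library was left out. NOTCH1 passed after the length correction (0.211, adjusted p = 0.0326). NRARP missed the threshold with the replicate block (-0.537, adjusted p = 0.0571) and lay between -0.653 and -0.427 when 1 library was left out. The uncalled DLL3 lay between -0.133 and 0.0121 and HES7 between -0.309 and 0.0737. The cause was not tested. With a fold minimum of 2, 2959 genes changed, 1493 higher and 1466 lower, by construction.

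In the ligand endocytosis list edgeR called 0 higher with total counts and limma 0 with each of the 3 FPKM settings (0 at an unadjusted p under 0.05, against 1 adjusted in the reported fit), edgeR 2 with the length correction and 1 to 2 without 1 library. Receptor glycosylation had 1 lower with total counts and the FPKM settings and 0 to 1 without 1 library. Of the proteases 0 fell in edgeR after the length correction (0 at an unadjusted p under 0.05), and 4 corepressors rose with unfiltered log2(FPKM + 1). Without 1 library, 0 to 1 other ligands fell, 1 to 2 often-named targets rose and 1 to 2 HES1-repressed genes fell. Deviations of libraries with the same replicate number correlated at -0.0152, 0.019 and -0.00572, and 2 of 6 libraries correlated best with their own number, and the numbers were therefore not treated as pairing the libraries. The block left 3 members higher and 3 lower. Few counts limit HEY1, NOTCH4, DLL1, DLL4, HES2, NEURL1 and BCL2, among others. Counts were also modest for HES1 (90 to 213 per library) and NRARP (73 to 140).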
